A study of Mus musculus with 2 samples.

Results

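The Ikaros family comprises 5 mouse genes, Ikzf1 to Ikzf5, which encode zinc finger transcription factors of blood cells. All 5 were found by symbol among the 23210 genes with usable symbols in the deposited tables. Each was read in 2 RNA sequencing libraries, 1 per group. Both came from mouse hematopoietic stem cells (HSCs) sorted from LSK cells that were CD150+ and Flt3- (LSK cells lack lineage markers and carry Sca-1 and Kit). The groups were Satb1-Tomato (-) cells and Satb1-Tomato (+) cells, whose libraries are called negative and positive below. Tomato is a fluorescent reporter of Satb1, the gene of a chromatin organizer of lymphoid cells, and both groups carry it. The labels give no strain, age, sex, treatment or number of pooled animals. The comparison asks how expression differs between HSCs with and without the reporter signal.

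As background, Ikaros family proteins bind DNA through zinc fingers near the N terminus and pair with one another through another pair of fingers at the C terminus. They act in large part by bringing chromatin complexes, above all the NuRD corepressor, to their targets. Ikaros (Ikzf1) is present from the stem cell onward and is needed for lymphoid priming of progenitors and for B cell development. Helios (Ikzf2) is found in HSCs and in T cell subsets, Aiolos (Ikzf3) in lymphocytes, Eos (Ikzf4) in regulatory T cells and some other tissues, and Pegasus (Ikzf5) broadly.

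The kinship of the members and the differences that let reads be assigned to them can be seen in their coding sequences, taken from GENCODE mouse release M21 (mm10). Shown here is the second N-terminal finger of Ikzf1 to Ikzf4, with capitals at the 20 of 63 bases where the 4 genes are not all the same. The stretches lie in coding exons at chr11:11754024-11754086 (plus strand), chr1:69570581-69570643 (minus), chr11:98488940-98489002 (minus) and chr10:128640229-128640291 (minus).
Ikzf1: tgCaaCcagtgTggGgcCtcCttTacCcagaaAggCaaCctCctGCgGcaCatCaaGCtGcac
Ikzf2: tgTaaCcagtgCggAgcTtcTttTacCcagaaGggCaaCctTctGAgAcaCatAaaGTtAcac
Ikzf3: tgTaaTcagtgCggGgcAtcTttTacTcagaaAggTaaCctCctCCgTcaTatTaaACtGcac
Ikzf4: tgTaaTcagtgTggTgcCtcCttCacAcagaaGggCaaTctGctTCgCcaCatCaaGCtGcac

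All 21 codons of this finger specify the same residues in the 4 genes, so every capital marks a silent difference. Ikzf1 and Ikzf4 differed at 10 of the 63 bases, Ikzf2 and Ikzf3 at 15, and no pair shared a run longer than 15 bases. A search for the zinc finger spacing in the translated coding sequence found 6 fingers in each of Ikzf1 to Ikzf4 and 5 in Ikzf5. No 50-base word of any member's transcripts occurred in a transcript of another member, so a stretch of that length from 1 member matches no other member exactly.

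Levels are in FPKM, fragments scaled by transcript length and by the number of mapped fragments, so genes of different length can be compared. With 1 library per group there is no replicate check and no p-value. Intervals are 95% intervals for counting error alone, from fragment numbers estimated out of the FPKM and from estimated depths, 34840000 fragments in the negative and 26780000 in the positive library. Variation among animals or sorts is outside them, and PCR copies count in them as separate fragments. The log2 ratio is log2((positive FPKM + 1)/(negative FPKM + 1)). A gene passed the size limit with a log2 ratio of 1 or more, or -1 or less, provided that 5 FPKM was reached in the library where it was higher. Of 9308 genes that reached 5 FPKM in a library, 1.31% passed it as higher in the positive library and 0.688% passed it as lower.

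The sort was visible in Satb1 itself, at 2.37 FPKM (negative) and 8.26 FPKM (positive). The 12 listed HSC and sort markers were all above 0 in both libraries, 6 with a log2 ratio above 0 and 6 below, among them Kit at 318 and 286 FPKM and Hlf at 72.7 and 58.4 FPKM. Besides Satb1, 1 of the 12 passed the size limit as higher, Cd48, a surface marker that HSCs are known to lack, at 47.6 and 145 FPKM (3.05-fold). Flt3, against which the cells were sorted, was at 17.3 and 27.1 FPKM. The lowest ratio of the 12 was that of Esam, an adhesion molecule of HSCs, at 68.5 and 34.2 FPKM (2.01-fold lower). Hlf, Slamf1, Procr, Mecom, Flt3 and Esam were picked with their values known. Transcripts of marker genes of other lineages were also present. Of 15 T cell markers in the files, 14 reached 1 FPKM in either library and none was at 0, and their summed level was 89.4 FPKM (negative) and 149 FPKM (positive). Lat, an adaptor that mast cells and platelets also carry, held 58.8 and 50.9 FPKM of these sums. Of 13 NK cell markers, 9 reached 1 FPKM, with Klre1 at 0 in the negative library, and the sums were 160 and 352 FPKM, of which the granule gene Nkg7 held 152 and 313 FPKM. B cell markers summed to 36.6 and 36.8 FPKM, almost all of it Cd79b, and the other 11 in the files stayed below 1 FPKM. Neutrophil and granulocyte progenitor markers (10 of 10 measured) summed to 1829 and 3725 FPKM. The early granule genes Mpo, at 437 and 1528 FPKM, and Elane, at 490 and 1081 FPKM, held most of the rise in that sum, while 4 of the 10 had a ratio below 0. Sums were 319 and 727 FPKM for mast cell and basophil markers (7 of 9 measured), with Cma1 and Tpsb2 at 0 in the negative library. Gata2, also on the list of lymphoid and stem cell factors below, held 153 and 137 FPKM of these. Plasmacytoid dendritic cell markers (6 of 8) summed to 93.0 and 119 FPKM. Most of that was Bst2 (53.7 and 66.8 FPKM), Tcf4 (21.9 and 19.3 FPKM) and Irf8 (12.5 and 24.1 FPKM). Siglech, on the same list, was at 0.223 and 0.171 FPKM. Gata2, Tcf4 and Siglech were picked with their values known. The part of such cells in the differences given below was not tested.

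The 5 members did not all differ in the same direction between the libraries. Ikzf3 was 8.91-fold higher, Ikzf1 1.31-fold higher and Ikzf4 1.73-fold lower in the positive library, while Ikzf2 and Ikzf5 differed by less than counting error. Of the 3 members that reached 5 FPKM in a library none passed the size limit, beside 2.0% of the 9308 such genes in either direction. Ikzf3 and Ikzf4 stayed under that minimum, and Ikzf3 was past the 2-fold limit. With a minimum of 1 FPKM it would count, as 1.38% of 11873 genes did in that direction. The summed level of the 5 genes was 62.8 FPKM (negative) and 71.4 FPKM (positive). Without Ikzf1 the sums were 36.1 and 36.4 FPKM. The median log2 ratio of the 5 was -0.03, and that of the 11873 genes that reached 1 FPKM in a library was -0.0059.

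**Figure D1:**
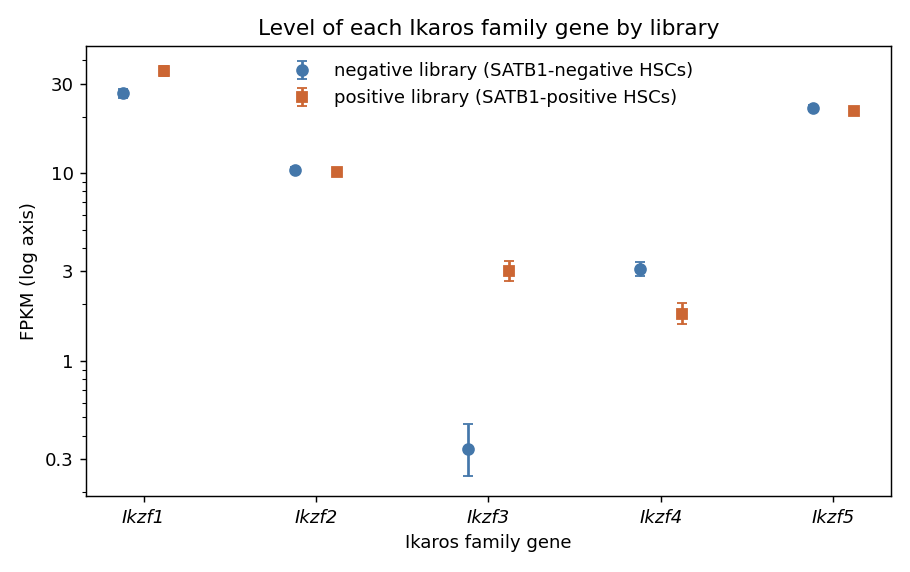
FPKM on a log axis for each Ikaros family gene in the negative (circles) and positive (squares) library, 1 library each; bars are 95% Poisson intervals of the estimated fragments. Ikzf3 lies at 0.340 and 3.03 FPKM, below and then above Ikzf4, which lies at 3.09 and 1.78 FPKM.

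Ikaros, the founding member, was the most abundant by FPKM. Ikzf1 (ENSMUSG00000018654.17, plus strand of chromosome 11, 11685003 to 11772926) was at 26.6 FPKM (25.2 to 28.2) in the negative library and at 35.03 FPKM (33.1 to 37.04) in the positive one. The positive library was the higher, and the counting intervals of the pair did not overlap. The fold of 1.31 (1.22 to 1.42) gave a log2 ratio of 0.38. Of the 11873 genes with at least 1 FPKM, 90.8% had a lower log2 ratio, and 81.5% had a smaller one regardless of sign. Ikzf1 made up 42.4% of the family's summed FPKM in the negative and 49.04% in the positive library. Its difference of 8.38 FPKM was the largest among the 5 genes in absolute terms.

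The Ikzf1 value pools 6 annotated transcripts of the gene. Some Ikaros isoforms lack DNA-binding fingers and block the full-length protein, and a value per symbol does not separate them. The choice of transcript length matters most for this gene. About 1241 and 1250 fragments stand behind its values if they fell on a transcript of 1542 bases, and about 4603 and 4646 if they fell on the longest, of 5163 bases. In the latter case the counting interval of the fold narrows to 1.26 to 1.37.

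Helios was at nearly the same level in both libraries. Ikzf2 (ENSMUSG00000025997.13, minus strand of chromosome 1, 69531214 to 69687245) was at 10.5 FPKM (10.1 to 10.8) in the negative library and at 10.2 FPKM (9.81 to 10.6) in the positive one. These intervals overlap, and the fold of 0.976 had an interval of 0.926 to 1.03 from about 3305 and 2478 fragments. The gene has an antisense neighbor, Gm29114, which shares 144 of its exonic bases, or 1.24%.

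Aiolos showed the widest difference of the family. Ikzf3 (ENSMUSG00000018168.8, minus strand of chromosome 11, 98464902 to 98546031) was at 0.340 FPKM (0.245 to 0.462) in the negative library and at 3.03 FPKM (2.68 to 3.40) in the positive one. About 41 and 279 fragments lie behind these values, and the fold was 8.91 (6.37 to 12.6). The gene was the least abundant of the 5 in the negative library, with 0.541% of the family's summed FPKM, and stood above Ikzf4 in the positive library, with 4.24%. Its log2 ratio of 1.59 was the 61st highest of the 11873 genes that reached 1 FPKM in a library. Ikzf3 entered that set through the positive library alone, so its direction there was given by the filter. In absolute terms it stayed low, with 11.6 FPKM of Ikzf1 for each FPKM of Ikzf3 in the positive library and 78.4 in the negative library.

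Some markers of T, NK and myeloid cells were also higher. In the positive library 7 of 14 measured T cell markers and 3 of 9 measured NK cell markers passed the size limit as higher and none as lower, with median log2 ratios of 1.31 and 1.15, beside 1.31% of all genes that reached 5 FPKM. So did 6 of 7 measured mast cell and basophil markers, with a median of 1.85, and 4 of 10 neutrophil and granulocyte progenitor markers, with a median of 0.46. These markers were counted from 1 FPKM on and the share of all genes from 5 FPKM on, so the 2 bases differ. With a pseudocount of 5 in place of 1, 2 of the T cell markers passed. A direction was given by the filter for 4 of the 14 measured T cell and 6 of the 9 measured NK cell markers, which reached 1 FPKM in 1 library alone. Cd3e, a chain of the T cell receptor complex, was at 2.76 and 15.4 FPKM (5.59-fold). Il2rb, the interleukin-2 and interleukin-15 receptor chain of NK and T cells, was at 1.69 and 13.6 FPKM (8.07-fold). The level of Ikzf3 relative to Il2rb was 0.202 in the negative and 0.223 in the positive library, and relative to Cd3e it was 0.123 and 0.197. Relative to Cd3g it was 0.115 and 0.229, and relative to Satb1 0.143 and 0.366. Relative to Il7r it went the other way, at 0.467 and 0.396. Of 28 T and NK cell markers in the files, Gzma, at 0.128 and 1.499 FPKM, was the 1 gene above 0 in both libraries whose fold was above that of Ikzf3, and it was picked with its value known. The part of such cells in the Ikzf3 difference was not tested. In a sorted population a higher share of cells with the transcript and more transcript per cell cannot be told apart.

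**Figure D2:**
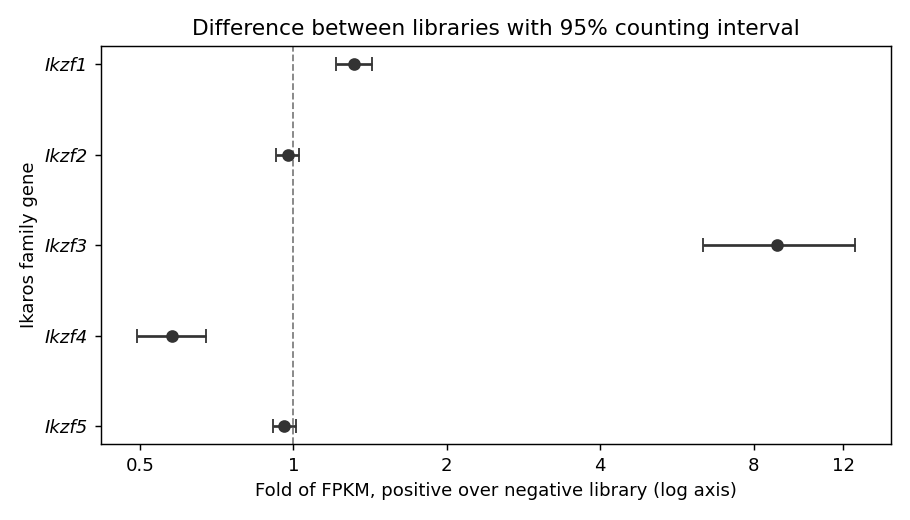
Fold of FPKM, positive over negative library, on a log axis for each Ikaros family gene, with 95% counting intervals and a dashed line at 1. The intervals of Ikzf1 and Ikzf3 lie above 1, that of Ikzf4 (0.493 to 0.673) below 1, and those of Ikzf2 and Ikzf5 include 1.

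Eos ran in the other direction. Ikzf4 (ENSMUSG00000002578.17, minus strand of chromosome 10, 128630843 to 128645991) was at 3.09 FPKM (2.84 to 3.37) in the negative library and at 1.78 FPKM (1.56 to 2.03) in the positive one. The intervals of the levels did not overlap, and the positive library was 1.73-fold lower (1.49 to 2.03; about 533 and 236 fragments). The log2 ratio was -0.56, the 504th lowest of 11873, and with both values under 5 FPKM the gene could not pass the size limit. Ikzf4 and Ikzf3 changed places in the order: Ikzf4 was 9.10 times Ikzf3 in the negative library and 0.590 times in the positive library. Regulatory T cells are a known source of Eos and Helios, and the list of 7 markers for them holds both genes. The other 5 markers each had a ratio above 0 and none passed the size limit. Tnfrsf18 was at 24.4 and 25.2 FPKM, Ctla4 at 1.73 and 2.71 FPKM, Tnfrsf4 at 1.06 and 1.77 FPKM, Il2ra at 0.129 and 0.948 FPKM and the defining factor Foxp3 at 0.125 and 0.655 FPKM. The part of these cells in the Ikzf4 difference was not tested. Ikzf4 shares 37 exonic bases, 0.617% of them, with the noncoding gene Gm26876 on the opposite strand.

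Pegasus was the second most abundant by FPKM. Ikzf5 (ENSMUSG00000040167.16, minus strand of chromosome 7, 131388652 to 131410521) was at 22.3 FPKM (21.5 to 23.03) in the negative library and at 21.4 FPKM (20.5 to 22.3) in the positive one, with overlapping intervals and a fold of 0.961 (0.911 to 1.01). This value carries a limit of its own. Of the exonic bases of Ikzf5, 81.3% are also exonic in Pstk, a kinase gene of selenocysteine tRNA on the opposite strand. Pstk was at 17.2 and 15.05 FPKM. The library kit keeps strand, but whether the counting used it is not given in the sources used here. Without it, reads from the bases that Ikzf5 and Pstk share cannot be told apart.

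By FPKM the order in the negative library was Ikzf1, Ikzf5, Ikzf2, Ikzf4 and Ikzf3, and no neighbors in it had overlapping counting intervals. In the positive library Ikzf3 and Ikzf4 stood the other way round, again without overlap. The place of Ikzf1 depends on transcript length, and the length behind its deposited FPKM is not known. If that was 1542 bases, the same fragments over its longest transcript would give 7.19 and 9.42 FPKM. Ikzf1 would then be behind Ikzf5 and Ikzf2 in both libraries. If the longest transcript was used already, its FPKM and its place stay as given. The order of the lower genes, Ikzf4 and Ikzf3, was the same over the longest transcripts.

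The genes most like each member were found as the 3 smallest distances in log2(FPKM + 1) over the 2 libraries, among 18821 named genes. With only 2 points per gene this likeness is a description of level. Nearest to Ikzf3 were Tesc (0.390 and 3.40 FPKM), Fasl, the death ligand of cytotoxic lymphocytes (0.233 and 2.82 FPKM), and Klrk1, the NK cell receptor NKG2D (0.477 and 2.94 FPKM). Nearest to Ikzf1 were Vps16, Shcbp1 and the kinetochore gene Ndc80, the last at 26.5 and 35.7 FPKM. Ikzf4 was closest to Nrk, Tspan9 and Acer2, Nrk being at 3.08 and 1.80 FPKM. Ptcd1, Rcbtb1 and Endog lay nearest to Ikzf2, and Gpbp1l1, Ncdn and Zfp868 nearest to Ikzf5.

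**Figure D3:**
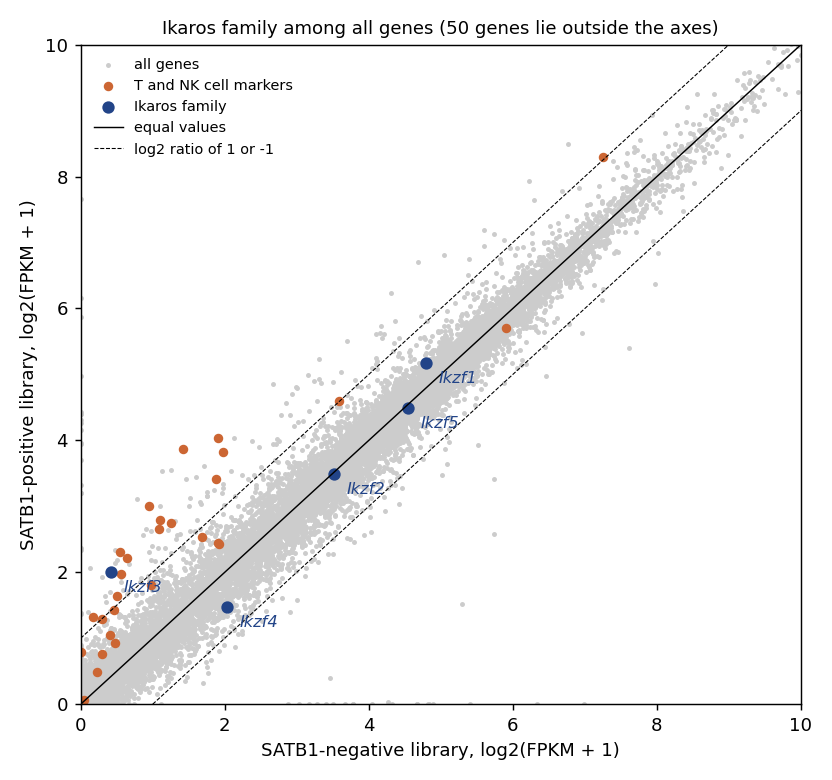
Each point is a gene, with log2(FPKM + 1) in the negative library on the x axis and in the positive library on the y axis; 50 genes lie outside the axes. Ikzf1, Ikzf2, Ikzf4 and Ikzf5 lie within the dashed lines for log2 ratios of 1 and -1, and Ikzf3 lies above them among the T and NK cell markers.

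No neighbor of the 5 genes passed the size limit, beside 2.0% of the 9308 genes that reached 5 FPKM in a library. With so few neighbors this is near that share, and neighbors that stayed under 5 FPKM could not pass. Within 250 kb, 9 genes near Ikzf3 had at least 1 FPKM and none passed the size limit. Their log2 ratios ran from -0.0030 for Thra to 0.65 for Pgap3, at 1.94 and 3.61 FPKM. Of the 9 ratios 8 lay above 0, and the median was 0.15, beside -0.0059 for all measured genes. Near Ikzf4, 18 such genes had a median log2 ratio of -0.05 and a range of -0.29 to 0.21, with 13 below 0 and 5 above. Near Ikzf1 there were 3, among them Fignl1 at 47.8 and 59.0 FPKM and Grb10 at 21.8 and 15.4 FPKM. Ikzf2 had no such neighbor, and none of the 4 near Ikzf5 passed the limit.

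The complexes that Ikaros proteins recruit were present in both libraries. All 14 listed NuRD genes were measured, which means at least 1 FPKM in either library. None passed the size limit, which is near the 2.0% of the 9308 genes that reached 5 FPKM in a library. Of the 14, 13 had a log2 ratio above 0, and the median was 0.12, beside -0.0059 for all measured genes. Chd4, the remodeling ATPase, was at 36.3 and 39.4 FPKM, and the histone-binding subunit Rbbp7 at 243.0 FPKM in both. The largest ratio was that of Mta2, picked with its value known, at 65.9 and 119 FPKM (1.81-fold, 1.75 to 1.87). Among 14 other corepressor and coactivator partners, again none passed the limit, and the median was 0.09. Ctbp1, a corepressor that Ikaros binds, was at 181 and 173 FPKM, and the SWI/SNF ATPase gene Smarca4 at 48.3 and 51.0 FPKM. Of these 14, 9 had a ratio above 0 and 5 below. The ratios ran from -0.50 for Ccnt1 (47.4 and 33.2 FPKM) to 0.67 for Smarce1 (30.2 and 48.8 FPKM), both picked with their values known.

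None of the 11 listed genes that modify or degrade Ikaros proteins passed the size limit. That is near the share over all genes, 2.0% of the 9308 that reached 5 FPKM in a library. The list of 11 held cereblon (Crbn), the substrate receptor through which thalidomide analogues lead to loss of Ikaros and Aiolos, its ligase partners, casein kinase 2 and protein phosphatase 1. Of the 11, 9 had a ratio above 0, and the median was 0.11. The largest was that of Ppp1cc, a phosphatase subunit, at 190 and 295 FPKM (1.55-fold, 1.52 to 1.59). Ppp1ca, another such subunit, was at 353 and 364 FPKM and the ligase scaffold Cul4b at 27.2 and 29.5 FPKM. Crbn itself was at 31.6 and 30.9 FPKM; Ppp1cc and Crbn were picked with their values known.

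Of 16 lymphoid genes known to depend on Ikaros, 8 were measured, 7 of these had a ratio above 0, and the median was 1.01. Over all 16, without the filter on low values, the median was 0.15, and with a pseudocount of 5 it was 0.46 over the measured genes. Ikzf3 is among the 8, and 3 of the 8, Ikzf3 included, reached 1 FPKM in the positive library alone. Il7r, the interleukin-7 receptor chain, passed the size limit as higher, at 0.727 and 7.64 FPKM (10.5-fold). Dntt, the polymerase that adds bases at antigen receptor joints, was at 1.20 and 3.08 FPKM. Cd79b, a chain of the B cell receptor complex, was at 34.3 and 33.9 FPKM. The 8 genes that were not measured stayed below 1 FPKM in both libraries. Among them Vpreb1, a part of the pre-B cell receptor, was at 0.765 and 0.597 FPKM, and the recombinase gene Rag1 at 0.0045 and 0.017 FPKM; these and Cd79b were picked with their values known. T cells also carry Il7r, and 7 T cell markers, given above, passed the limit in the same direction; their part was not tested.

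Of 12 Notch and growth genes that Ikaros represses in lymphoid cells, 8 were measured, with 4 ratios above 0, 4 below and a median of -0.06. Hes1, a repressor downstream of Notch, passed the limit as lower, at 150 and 68.9 FPKM (2.17-fold). Myc was at 138 and 139 FPKM. Ptcra, the pre-T cell receptor chain, was at 0 in the negative library and below 0.1 FPKM in the positive library; it was picked with its value known.

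Of 24 other lymphoid and stem cell transcription factors measured, 4 passed the limit as higher (1 with a pseudocount of 5), beside 1.31% of all genes that reached 5 FPKM. They were Satb1, whose reporter was used for the sort, Tcf7 (2.38 and 7.89 FPKM), Id2 (17.2 and 45.9 FPKM) and Gfi1 (5.37 and 14.4 FPKM). Tcf7 acts in T cells and innate lymphoid cells, Id2 restrains E proteins, and Gfi1 is a repressor of lymphoid and granulocyte progenitors. The other 20 did not pass it, 12 of 24 ratios lay above 0, and the median was -0.0020. Among these 20, Lef1 (0.498 and 2.33 FPKM) and Bcl11b (0.563 and 2.18 FPKM) were past the 2-fold limit but under the minimum of 5 FPKM. Both reached 1 FPKM in the positive library alone, so their direction was given by the filter. They were picked with their values known. The lowest ratio of the 24 was -0.54. Zbtb16 stood at the median, at 1.48 and 1.49 FPKM. Over the 79 different genes measured on these 6 lists, 6 passed the limit as higher, 1 passed as lower and the median log2 ratio was 0.10. Satb1, the gene of the sort reporter, is 1 of the 6. Over all genes that reached 5 FPKM, 1.31% passed as higher and 0.688% as lower. Genes on the lists were counted from 1 FPKM on, and those under 5 FPKM could not pass.

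**Figure D4:**
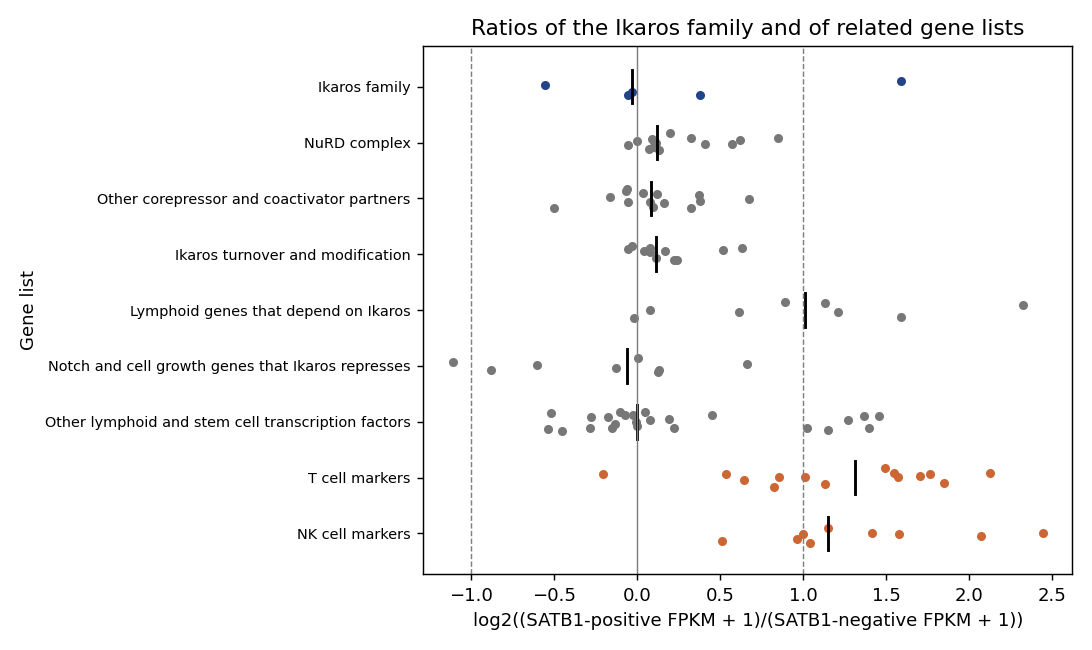
Log2 ratio of each measured gene of the Ikaros family, of 6 related gene lists and of T and NK cell markers; points are genes, spread vertically at random for display, black bars are medians, and dashed lines mark -1 and 1. The family's median is -0.03, those of the 3 lists of partner, complex and turnover genes lie between 0.09 and 0.12, and the T and NK cell marker medians are 1.31 and 1.15.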

How the data were processed

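The deposited FPKM values, 1 file per library with 1 value per symbol, were made by the authors. Per the submitters' processing notes, TopHat2 2.0.13, Bowtie2 2.2.3, SAMtools 0.1.19, Cufflinks 2.2.1 and mm10 were used (roles, annotation and strand setting: not given in the sources used here). The kit was Clontech's SMARTer Stranded, per the labels. Of 23235 rows, 25 with a date in place of a symbol were left out. Counts were not in the files used. Depth was inferred from genes of 1 exon and 1 transcript, whose low values step by 1 fragment. The best depth made 54.9% of 244 values whole within 0.05 fragments in the negative and 56.1% of 289 in the positive library, against 10% for a depth at random; depth and offset (205 and 210 bases) were searched for. Fragments used the shortest RefSeq-linked transcript of GENCODE M21, whose genes matched 89.6% of symbols. Fold intervals were Clopper-Pearson, level intervals exact Poisson. The search for depth and the size limit were run on simulated data, with outcomes not given here. The 5 members and the lists were chosen with earlier results of these data known. Besides the members and Satb1, genes were named by rule: per list those past the size limit (up to 4) or the most abundant, the gene nearest the median, and the 3 nearest to each member. Some genes and sequences that fall under these rules are not reported here. Python 3.11.15, pandas 2.3.3, NumPy 2.4.6 and SciPy 1.17.1 were used. The alternatives were other pseudocounts, scalings, filters, folds and transcript lengths.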

Additional observations from a re-analysis of the deposited data

How the results depend on the processing

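With 1 library per group no replicate could be left out. No paired analysis was possible because each group has a single library. The log2 ratios of Ikzf1, Ikzf2 and Ikzf5 stayed within their counting intervals under pseudocounts of 0.1 and 5 and under the 3 scalings. That of Ikzf3, 1.59 as reported, was 2.83 with a pseudocount of 0.1, 0.59 with a pseudocount of 5 and 2.08 after scaling to TPM. That of Ikzf4 was -0.76 with a pseudocount of 0.1 and -0.25 with a pseudocount of 5. The sign of each was kept. The count of family members past the size limit, 0 as reported, was 1 (Ikzf3) after TPM scaling, with a minimum of 1 FPKM and without a minimum; TPM scaling multiplies both libraries by about 2.01, which lowers the weight of the pseudocount and of the minimum. Fragments were also estimated from the shortest RefSeq-linked transcripts and set over the longest annotated ones. On that assumption, 2 of 5 members kept their place in the order of levels in each library. On the 6 lists together, the higher genes numbered 3 with a pseudocount of 5, 12 with a 1.5-fold limit and 10 without filters, and the lower genes 3 with the 1.5-fold limit. Of 120 ratios recomputed for the 24 genes that the naming rule picks and that passed the limit, 114 still met it, 6 did not and 0 changed sign. Depth limits the negative library's Ikzf3 value most, at about 41 fragments.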
